A study of Sus scrofa with 8 samples.

Results

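The immediate early genes *FOS*, *FOSB*, *JUN*, *JUNB*, *JUND*, *EGR1*, *EGR2*, *EGR3*, *IER2* and *DUSP1* were followed in pig liver before and after a steatotic diet. They were taken by symbol from the table of hepatic expression, where each symbol had 1 row, so that these 10 genes stand among 18103 rows (17778 known genes and 325 new transcripts). Hepatic RNA of male Landrace x Large White pigs was sequenced in 8 libraries, 4 of the initial state and 4 of steatosis, each a pool of RNA from 2 pigs. The initial state was sampled at 4 months of age on the control diet, and steatosis at 6 months after 2 months on the steatotic diet. Livers of the initial state were taken as biopsies by laparotomy under propofol, and livers of the steatotic state after euthanasia by an anaesthetic overdose, both after overnight fasting. According to the methods the steatotic animals were the same pigs later. Diet, age and the way of sampling therefore cannot be told apart in any difference between groups.

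Immediate early genes are transcribed within minutes of a stimulus, without the need for new protein, when kinases of the MAP kinase and related pathways activate transcription factors already bound at their promoters. FOS and JUN proteins pair through leucine zippers to form the transcription factor AP-1, EGR proteins bind GC-rich DNA through zinc fingers, and DUSP1 is a phosphatase that switches the MAP kinases off again. Their transcripts are short-lived. In liver they are known to respond to partial hepatectomy, surgical handling, hypoxia, hormones and inflammatory signals.

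Levels are given as FPKM, fragment counts that the authors scaled to transcript length and to the mapped reads of a library. A gene entered the comparison if 4 or more libraries reached 0.3 FPKM, which left 13175 genes. The 2 groups were set against each other by limma, on a log2 scale after adding 0.1 FPKM, with p values adjusted over all 13175 by the Benjamini-Hochberg method. A fold change on this scale understates the change of genes with low levels. A difference was called at the limits of the study (adjusted p under 0.01 and log2 fold change beyond 1) and, as a second rule, at an adjusted p under 0.05. Since pools are the replicates, p values set a difference against the spread between pools. The main fit did not pair the pools, although the groups were the same pigs at different times. Fits with the pool number as a block are given as alternatives. Read numbers were not used, but the step between the smallest FPKM values placed every library at 90.2% or more of the deepest one. In bulk RNA, fewer cells of a type and less RNA per cell cannot be told apart.

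A library of the initial state stood apart before any comparison was made. Pool 1 of the initial state held transcripts of tissues other than liver. There the 12 skeletal muscle markers summed to 3076 FPKM, against 8.52, 14.5 and 25.8 FPKM in initial pools 2, 3 and 4 and 6.03 to 7.34 FPKM in steatosis. Skeletal actin *ACTA1* alone was listed at 1439 FPKM there. The 11 markers of stomach mucosa summed to 1536 FPKM in initial pool 1, 15.1, 29.3 and 5.81 FPKM in the other initial pools, and 6.00 to 6.54 FPKM in steatosis. The 6 adipose markers summed to 87.5 FPKM against 16.7 to 17.8 FPKM in initial pools 2 to 4, with adiponectin (*ADIPOQ*) at 27.9 FPKM in pool 1 and at most 0.60 FPKM elsewhere, and to 54.4 to 64.8 FPKM in steatosis, mostly *FABP4*. Transcripts of stellate cells and fibroblasts were also highest in this pool among the initial ones, for 8 of 9 markers, with a median ratio of 1.73 to the mean of the other 3. The result of each of the 10 genes is therefore given with and without initial pool 1, and gene lists where their calls change without it. The label of the tissue was borne out in each library by hepatocyte markers, whose 11 rows summed to 60984 FPKM or more.

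All 10 genes passed the filter on low values, *EGR3* mainly through the steatotic pools, where it was higher, so that its call is no support. Both *EGR2* and *EGR3* were higher in steatosis, by 3.39-fold and 2.86-fold, and their groups did not overlap. They were the 2 genes of the 10 called at the limits of the study, where 6.01% of all tested genes were called as higher. They were also the 2 called at an adjusted p under 0.05, where 26.7% of all tested genes were called as higher. The other 8 genes had adjusted p values between 0.232 and 0.89. When initial pool 1 was left out, *JUN* joined them at an adjusted p of 0.0219, so that 3 of 10 genes were called as higher against 23.5% of all tested genes, while 2 of 10 were called at the limits of the study against 5.91%. The members' share at the second rule was thus near that of all genes. Over all tested genes the median was itself above 0, at 0.25 in both fits, and moved to −0.01 when libraries were scaled by the median ratio.

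**Figure D1:**
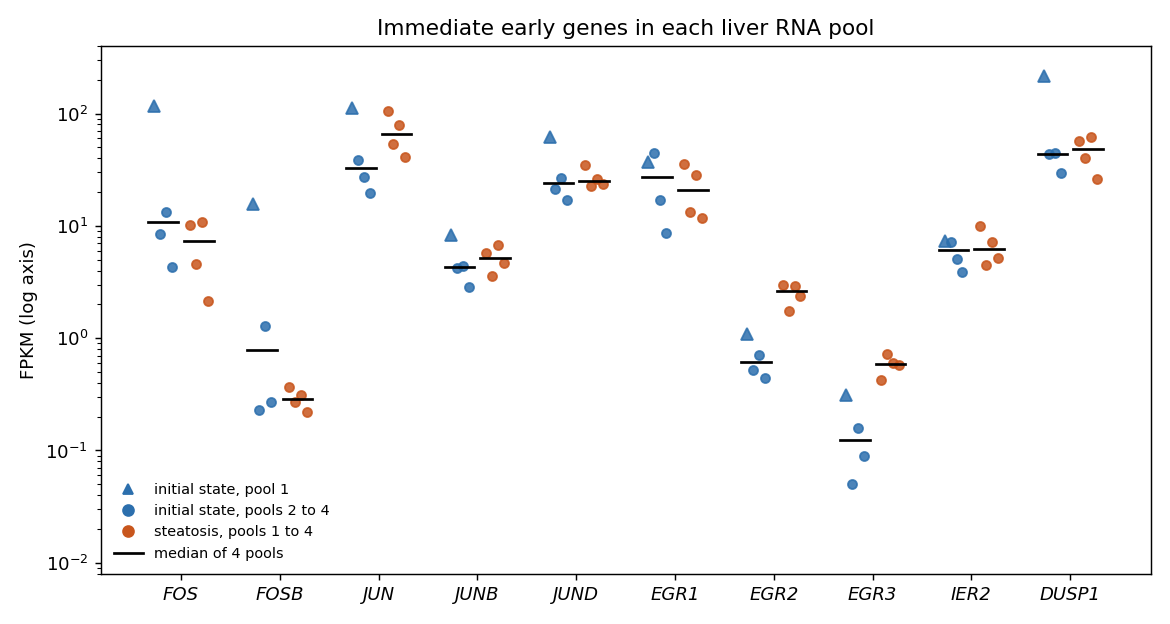
FPKM (log axis) of the 10 immediate early genes in each liver RNA pool, blue for the 4 pools of the initial state (triangle: pool 1) and orange for the 4 pools of steatosis, with a black line at the median of each group. The groups are separate for *EGR2* and *EGR3*, and the triangle is the highest initial value in 9 of the 10 genes.

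The FOS family supplies the AP-1 subunits that cannot bind DNA alone and depend on a JUN partner. *FOS* (gene 100144486, Sscrofa11.1 chromosome 7, 98449508 to 98451971) was measured at 117, 8.38, 13.4 and 4.27 FPKM in initial pools 1 to 4 and at 10.2, 4.58, 10.8 and 2.16 FPKM in steatotic pools 1 to 4. Initial pool 1 was 13.5 times the mean of the other 3 initial pools, and the remaining initial values lay among or close to the steatotic ones. The group means were 35.8 ± 54.4 FPKM (SD, n = 4) and 6.92 ± 4.22 FPKM (SD, n = 4), so that the SD of the initial state exceeded its mean. The log2 fold change of *FOS* was −1.41 (SE 0.91, 95% interval −3.44 to 0.62, adjusted p = 0.266), and without initial pool 1 it was −0.44 (SE 0.56, interval −1.70 to 0.82, adjusted p = 0.587). *FOS* was lower in steatosis in all 4 pairs of pools with the same number, as were 5.97% of all tested genes. Taking the pool number as a block, its adjusted p was 0.0567 with all pools and 0.0238 (log2 fold change −0.71) with pool 1 of both groups left out.

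*FOSB* (gene 110261009, chromosome 6, 51836780 to 51844531), a close relative of *FOS* best known from neurons, was low outside initial pool 1. It was measured at 15.7, 0.23, 1.29 and 0.27 FPKM in the initial pools and at 0.37, 0.27, 0.31 and 0.22 FPKM in the steatotic pools. Initial pool 1 was 26.3 times the mean of the other 3 initial pools, initial pool 3 was the only other value above 0.37 FPKM, and initial pools 2 and 4 lay within the steatotic range. Its log2 fold change was −1.72 (SE 1.03, interval −4.02 to 0.58, adjusted p = 0.232), and without initial pool 1 it was −0.51 with an adjusted p of 0.44.

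The JUN family holds the AP-1 subunits that can pair among themselves as well as with FOS proteins. *JUN* (gene 396913, chromosome 6, 153686425 to 153687635), required for normal liver development and regeneration, was measured at 111, 38.4, 27.1 and 19.5 FPKM in the initial pools and at 105, 53.1, 78.9 and 40.7 FPKM in the steatotic pools. Initial pool 1 exceeded every steatotic pool, whereas initial pools 2 to 4 all lay below the lowest steatotic pool. With all pools the log2 fold change was 0.75 (SE 0.49, interval −0.35 to 1.84, adjusted p = 0.274). Taking the pool number as a block, its adjusted p with all pools was 0.0516. Without initial pool 1, *JUN* was higher in steatosis by a log2 fold change of 1.25 (SE 0.33, interval 0.52 to 1.99, adjusted p = 0.0219), or 2.38-fold, and the groups no longer overlapped, as was the case for 33.8% of all tested genes in that direction. With pool 1 of both groups left out it was 1.02 (adjusted p = 0.0406). The call for *JUN* thus depended on that library, and leaving out any of the other 7 gave log2 fold changes from 0.42 to 0.97 with adjusted p values from 0.212 to 0.561. The paper's supplement lists *JUN* among its differentially expressed genes, from the authors' own calls, which were not repeated here.

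*JUNB*, a weaker activator that can restrain JUN, was measured at 8.33, 4.18, 4.39 and 2.84 FPKM in the initial pools and at 5.77, 3.58, 6.77 and 4.67 FPKM in the steatotic pools. The groups overlapped, with and without initial pool 1. Its log2 fold change was 0.14 (interval −0.53 to 0.82, adjusted p = 0.747), 0.43 without initial pool 1 (adjusted p = 0.199), and −0.12 with median ratio scaling. The transcript model used for *JUNB* (gene 100523358, chromosome 2, 66214086 to 66219435) was 5350 bases long, as long as the locus. Those of *JUN*, *JUND* and *IER2* (1225, 1854 and 2854 bases) also had about the length of their loci. A length equal to that of the locus is in itself no fault of a model. FPKM depends on the model length, and whether these models end where the transcripts do was not tested.

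*JUND* (gene 110259314, chromosome 2, 59530991 to 59532846), the JUN member usually present in resting cells, was measured at 62.0, 21.2, 26.5 and 17.1 FPKM in the initial pools and at 34.8, 22.6, 26.3 and 23.7 FPKM in the steatotic pools. The groups overlapped, with initial pool 1 above every steatotic pool, initial pools 2 and 4 below all of them and initial pool 3 among them. For *JUND* the log2 fold change was −0.07 (interval −0.84 to 0.69, adjusted p = 0.89), and 0.31 without initial pool 1 (adjusted p = 0.232).

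The ratio of *FOS* to *JUN* separated the groups where the level of *FOS* did not. This ratio, of 2 levels in FPKM, was 1.06, 0.219, 0.496 and 0.220 in the initial pools and 0.0970, 0.0862, 0.137 and 0.0531 in the steatotic pools. Every initial pool lay above every steatotic pool, initial pool 1 included. The ratio of the summed FOS family (*FOS* and *FOSB*) to the summed JUN family was 0.115 to 0.733 in the initial pools and 0.0345 to 0.0989 in the steatotic pools, also without overlap. *JUN* made up 46.7% to 61.2% of the summed JUN family in the initial pools and 59.0% to 72.1% in the steatotic pools, with the lowest steatotic pool (pool 4) within the initial range. The ratio of *FOS* to *EGR1* overlapped, at 0.19 to 3.13 in the initial pools and 0.185 to 0.377 in the steatotic pools. The *FOS* ratios without overlap thus had *JUN* or its family as the denominator. These ratios were chosen after the values were seen and are given without a test.

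**Figure D2:**
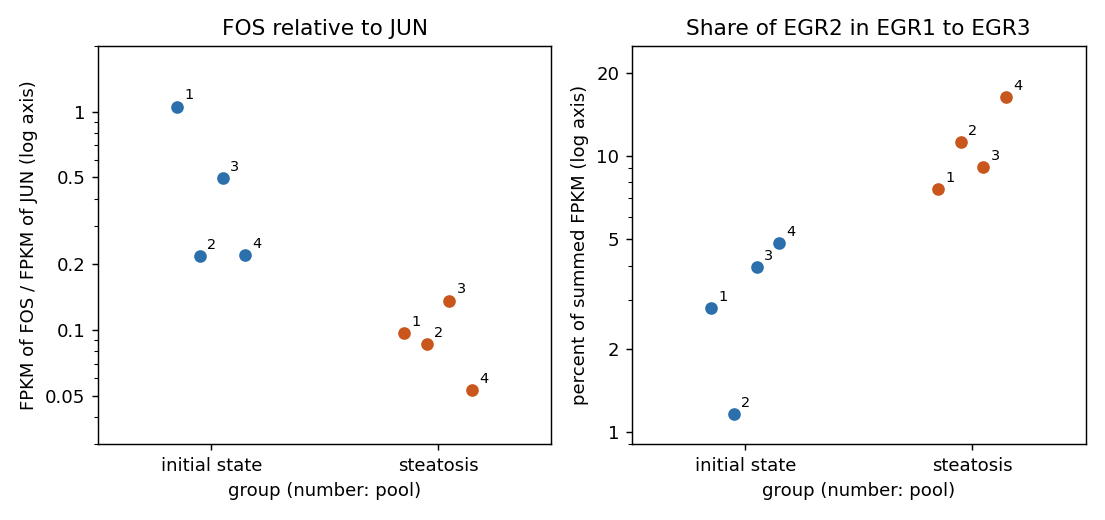
Left, FPKM of *FOS* divided by FPKM of *JUN*, and right, *EGR2* as a percent of the summed FPKM of *EGR1*, *EGR2* and *EGR3*, both on log axes, with 1 point per pool numbered by pool (blue, initial state; orange, steatosis). In both panels the 4 initial pools and the 4 steatotic pools do not overlap.

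Of the EGR family, *EGR2* and *EGR3* rose, and *EGR1* did not pass the test. *EGR1* (gene 100520726, chromosome 2, 140440829 to 140445302), the most abundant of the 3 and a factor of growth and injury responses, was measured at 37.4, 44.2, 17.2 and 8.58 FPKM in the initial pools and at 35.5, 13.2, 28.5 and 11.7 FPKM in the steatotic pools. Each group held high and low pools, and this was the single member of the 10 whose highest initial value was not in pool 1. Its log2 fold change was −0.16 (interval −1.34 to 1.02, adjusted p = 0.838), and 0.09 without initial pool 1 (adjusted p = 0.918). The interval reaches beyond 1 on the log2 scale on both sides, so that changes of that size in *EGR1* were not detectable with these pools.

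*EGR2* (gene 100038004, chromosome 14, 66280665 to 66291308), known from Schwann cells and from lymphoid and myeloid cells including macrophages, was measured at 1.09, 0.52, 0.71 and 0.44 FPKM in the initial pools and at 2.95, 1.76, 2.91 and 2.39 FPKM in the steatotic pools. Every steatotic pool lay above every initial pool, and above the initial pool of the same number, as was also true of *EGR3* and of 44.1% of all tested genes. The means of *EGR2* were 0.69 ± 0.29 FPKM and 2.50 ± 0.56 FPKM (SD, n = 4 each). Its log2 fold change was 1.76 (SE 0.27, interval 1.17 to 2.36, adjusted p = 0.00136), and 1.98 without initial pool 1 (adjusted p = 0.000525). It stayed under an adjusted p of 0.01 in all 18 alternatives, with log2 fold changes from 1.05 with a pseudocount of 1 FPKM to 1.98. *EGR2* made up 2.81%, 1.16%, 3.94% and 4.83% of the summed EGR level in the initial pools and 7.59%, 11.2%, 9.09% and 16.3% in the steatotic pools.

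*EGR3* (gene 100516296, chromosome 14, 6943184 to 6948507), which is often induced beside *EGR2* in activated lymphocytes, was measured at 0.31, 0.05, 0.16 and 0.09 FPKM in the initial pools and at 0.42, 0.72, 0.60 and 0.58 FPKM in the steatotic pools. The groups did not overlap, although initial pool 1 and steatotic pool 1 were close. The log2 fold change was 1.52 (SE 0.33, interval 0.78 to 2.25, adjusted p = 0.00815), and 1.78 without initial pool 1 (adjusted p = 0.0022). Only 1 of 4 initial pools reached 0.3 FPKM against 4 of 4 steatotic pools. The gene thus entered the test because it was higher in steatosis, and its call is no support. With no filter its adjusted p was 0.0105, above the limit of the study. Blocking on the pool number gave an adjusted p of 0.0197, above the limit of the study, and with a pseudocount of 1 FPKM the log2 fold change was 0.46. With any single library other than initial pool 1 left out, the adjusted p lay between 0.0137 and 0.0276.

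Of the 13175 tested genes, 29.6% were higher in steatosis without overlap between the 4 initial and 4 steatotic pools, and among the 10 genes this held for *EGR2* and *EGR3*. Macrophages are known to express *EGR2*. Of 9 macrophage markers tested, 6 rose at an adjusted p under 0.05, where 26.7% of all tested genes rose, with a median log2 fold change of 0.90, and their summed level was 476 to 559 FPKM in the initial pools and 572 to 657 FPKM in the steatotic pools. The scavenger receptor *MARCO* rose from 4.16 to 7.10 FPKM in the initial pools to 42.6 to 108 FPKM in the steatotic pools (log2 fold change 3.33, adjusted p = 6.19e-05), and *CD68*, *MSR1* and *VSIG4* by 2.01, 2.35 and 0.94. The *CD68* row used was gene 103158530. The paper reports *CD68* under another gene ID, with a larger log2 fold change, and that entry was not in the list. The abundant markers *CD5L* and *CD14* had log2 fold changes of −0.34 and −0.19 and did not pass the test (adjusted p = 0.0709 and 0.186). The natural killer cell gene *NKG7* rose by 1.36, but the T cell receptor subunit *CD3E* had a log2 fold change of 0.28 (adjusted p = 0.355). *NKG7* was the only 1 of 7 T and NK cell markers called, against 26.7% of all tested genes. The part of these cell types in the rise of *EGR2* and *EGR3* was not tested.

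*IER2* (gene 100525209, chromosome 2, 65909638 to 65912491), a small nuclear protein induced by growth factors, was measured at 7.30, 7.18, 5.09 and 3.89 FPKM in the initial pools and at 9.92, 4.44, 7.22 and 5.15 FPKM in the steatotic pools. With initial pool 1 included, *IER2* varied least of the 10 in the initial state, where its highest pool was 1.88 times its lowest. This rank depended on that pool. Over initial pools 2 to 4 the ratio of *IER2* was 1.85, while *JUNB*, *JUND*, *EGR2* and *DUSP1* had ratios of 1.61 or less. The ratios of *FOS*, *FOSB*, *JUN*, *EGR1* and *EGR3* were above that of *IER2* there too. The log2 fold change was 0.16 (interval −0.45 to 0.77, adjusted p = 0.684), 0.28 without initial pool 1 (adjusted p = 0.494), and −0.11 with median ratio scaling.

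*DUSP1* (gene 100522469, chromosome 16, 51457924 to 51461095), also a target of glucocorticoids, was measured at 217, 43.5, 44.5 and 29.6 FPKM in the initial pools and at 57.0, 39.8, 61.3 and 25.9 FPKM in the steatotic pools. Initial pool 1 was 5.54 times the mean of the other 3 initial pools, which themselves lay inside the steatotic range. For *DUSP1* the log2 fold change was −0.45 (interval −1.67 to 0.78, adjusted p = 0.566), and 0.18 without initial pool 1 (adjusted p = 0.674). Relative to *JUN*, *DUSP1* was at 1.14 to 1.96 in the initial pools and 0.543 to 0.778 in the steatotic pools, without overlap. This ratio too was chosen after the values were seen and has no test.

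**Figure D3:**
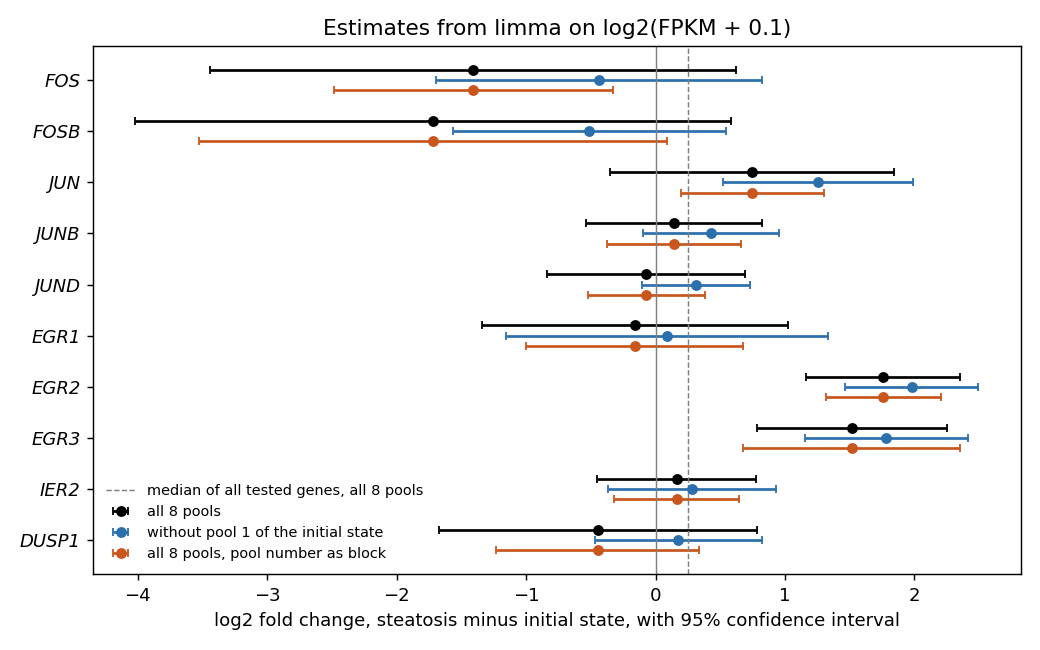
Log2 fold change (steatosis minus initial state) of each gene with its 95% confidence interval from limma, with all 8 pools (black), without pool 1 of the initial state (blue) and with the pool number as a block (orange). The intervals of *EGR2* and *EGR3* lie above 0 in the 3 fits, the blue and orange intervals of *JUN* lie above 0, the orange interval of *FOS* lies below 0, and the dashed line marks the median of all tested genes at 0.25.

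In levels per length, *DUSP1* and *JUN* had the highest means over initial pools 2 to 4 and in steatosis, although *EGR1* exceeded both in initial pool 2, and with pool 1 included the mean of *FOS* in the initial state (35.8 FPKM) was exceeded only by those of *DUSP1* and *JUN*. Over initial pools 2 to 4 the mean levels were 39.2 FPKM for *DUSP1*, 28.3 for *JUN*, 23.3 for *EGR1*, 21.6 for *JUND*, 8.69 for *FOS*, 5.39 for *IER2*, 3.80 for *JUNB*, 0.597 for *FOSB*, 0.557 for *EGR2* and 0.10 for *EGR3*. In steatosis they were 69.4 FPKM for *JUN*, 46.0 for *DUSP1*, 26.8 for *JUND*, 22.2 for *EGR1*, 6.92 for *FOS*, 6.68 for *IER2*, 5.20 for *JUNB*, 2.50 for *EGR2*, 0.580 for *EGR3* and 0.293 for *FOSB*. *JUN* was above *DUSP1* in each steatotic pool and below it in each initial pool. The ranges of *JUND* and *EGR1*, and those of *FOS*, *IER2* and *JUNB*, overlapped in steatosis, and the range of *FOSB* overlapped that of *EGR2* in the initial state, where *FOSB* was the higher of the 2 in pools 1 and 3 and *EGR2* in pools 2 and 4. In steatosis *EGR2* and *EGR3* were above *FOSB* in every pool.

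Of the 10 genes, most varied together between pools of the same group. Initial pool 1 was the highest initial pool for 9 of them, against 23.7% of all tested genes, and exceeded 2 times the mean of the other 3 initial pools for 7 of them, against 3.74% of all tested genes. Initial pool 4 was the lowest for 8 of them, but this held for 51.1% of all tested genes. Within steatosis, where no library held muscle or stomach transcripts above 7.34 FPKM in sum, pools 1 and 3 were both above pools 2 and 4 for 9 of the 10, all but *EGR3*, against 12% of all tested genes. Summed over the 10 genes, initial pools 1 to 4 reached 577, 168, 140 and 86.6 FPKM, and steatotic pools 1 to 4 reached 262, 144, 224 and 117 FPKM. With each gene centred within each group, *EGR1*, *EGR3* and *IER2* followed the mean profile of the 10 less closely, with Pearson r of 0.70, 0.63 and 0.69. The r of the other members was 0.908 to 0.987, each being itself part of that mean. These patterns were noticed after the values were seen and are a description.

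**Figure D4:**
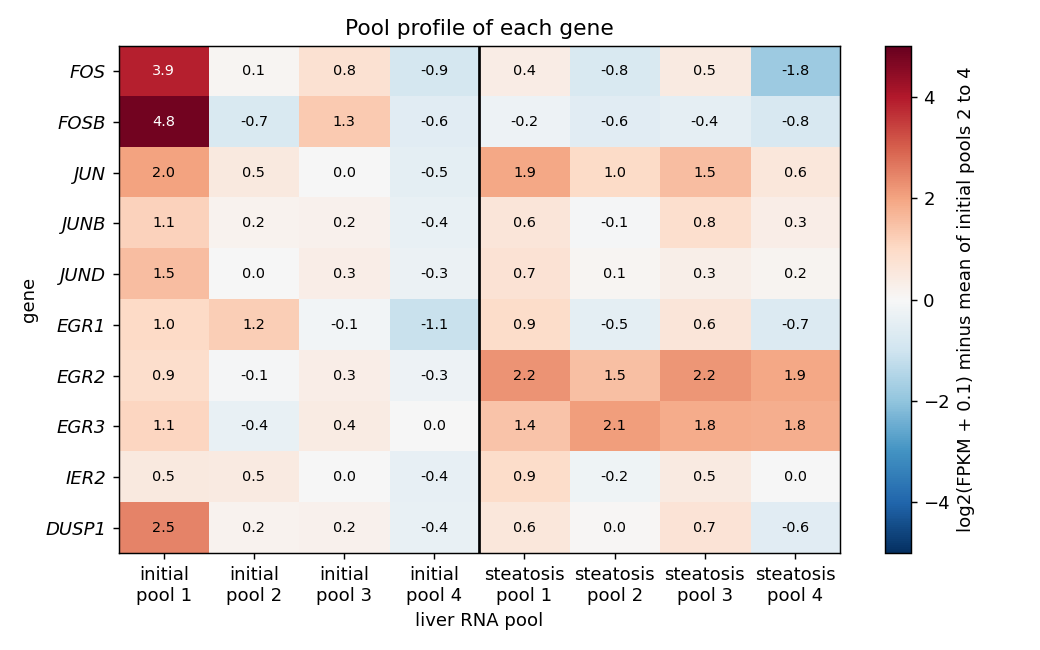
Log2(FPKM + 0.1) of each gene (rows) in each pool (columns), minus the gene's mean over initial pools 2 to 4, with red for higher and blue for lower values and the difference printed in each cell. Initial pool 1 is high in all rows, steatotic pools 1 and 3 are above pools 2 and 4 in 9 rows, and *EGR2* and *EGR3* are high in all steatotic pools.

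The spread between pools was large for several of the genes. Across the initial pools the SD of log2(FPKM + 0.1) was 2.05 for *FOS*, 2.59 for *FOSB* and 1.27 for *DUSP1*, against a median of 0.25 over all tested genes. Without initial pool 1 it was 0.82 for *FOS*, 1.15 for *FOSB*, 1.18 for *EGR1* and 0.33 for *DUSP1*, which placed *FOS* at the 97.1, *FOSB* at the 98.7, *EGR1* at the 98.8 and *DUSP1* at the 70.3 percentile of all tested genes. Across the steatotic pools it was 1.07 for *FOS*, 0.79 for *EGR1* and 0.60 for *JUN*, against a median of 0.16. For the 2 called genes it was 0.33 (*EGR2*) and 0.27 (*EGR3*).

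Among the proteins that pair with FOS or JUN, *JDP2*, *BATF3* and *ATF7* rose. Of 12 such AP-1 partners in the table, 11 were tested and 3 rose, near the 26.7% of all tested genes, with a median log2 fold change of 0.46. The repressor *JDP2*, which pairs with JUN, rose from 0.78 to 1.14 FPKM in the initial pools to 2.29 to 3.15 FPKM in steatosis (log2 fold change 1.42, adjusted p = 0.000339). *BATF3*, a partner of JUN in dendritic cells, rose by 1.06 (adjusted p = 0.0189) and *ATF7* by 0.61 (adjusted p = 0.0336). The stress-induced *ATF3* was at 38.8 FPKM in initial pool 1, 2.50 to 8.77 FPKM in the other initial pools and 6.16 to 20.3 FPKM in steatosis (log2 fold change 0.25, adjusted p = 0.817). Without initial pool 1, 5 of the 11 rose, against 23.5% of all tested genes, with a median of 0.69. With either other scaling 1 of the 11 rose.

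A wider list of 40 other immediate early genes was also high in initial pool 1. That pool was the highest initial pool for 34 of them, against 23.7% of all tested genes, and exceeded 2 times the mean of the others for 24, against 3.74%. The median ratio was 2.29, beside 2.99 for the 10 genes. Between groups 4 of the 38 tested rose and 1 fell (26.7% and 2.28% of all tested genes), with a median log2 fold change of −0.14 (0.18 without initial pool 1). *IER5L*, a relative of *IER2*, rose by 1.16 (adjusted p = 0.00082), the antiproliferative gene *BTG1* by 0.54 (adjusted p = 0.0058) and *NFKBIA*, the inhibitor and target of NF-kappa B, by 0.55 (adjusted p = 0.0214). *KLF10*, a target of TGF-beta, fell from 8.99 to 14.9 FPKM in the initial pools to 3.69 to 7.26 FPKM in steatosis, a log2 fold change of −1.03 (adjusted p = 0.00908). Without initial pool 1, 7 of the 38 rose and 1 fell (23.5% and 2.13% of all tested genes).

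**Figure D5:**
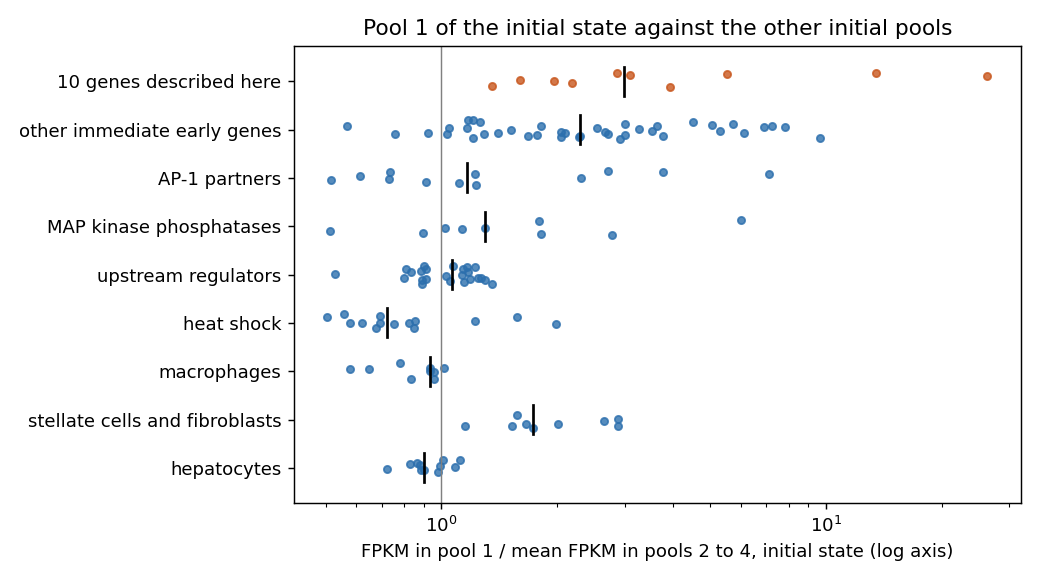
Ratio of the FPKM of initial pool 1 to the mean FPKM of initial pools 2 to 4 (log axis), with 1 point per gene for the 10 genes (orange) and 8 other gene lists (blue) and a black line at each median. The medians are 2.99 for the 10 genes, 2.29 for the other immediate early genes, 1.73 for stellate cells and fibroblasts, and 1.3 or below for the other lists shown.

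Several kinases upstream of these genes rose, in a list whose median was near that of all tested genes. Of 24 kinases and transcription factors upstream, 9 rose at an adjusted p under 0.05, where 26.7% of all tested genes rose. Their median log2 fold change was 0.24, beside 0.25 over all tested genes. Initial pool 1 was at most 1.35 times the mean of the other initial pools. The count was 7 of the 24 when initial pool 1 was left out, where 23.5% of all tested genes rose. It was 5 with median ratio scaling and 4 with upper quartile scaling. The kinase *RPS6KA1* rose from 3.14 to 3.67 FPKM to 7.54 to 9.30 FPKM (log2 fold change 1.30, adjusted p = 6.45e-05), *MAP2K6* by 0.73, the ERK1 kinase gene *MAPK3* by 0.71 and the SRF cofactor gene *MRTFB* by 0.70. Among 8 MAP kinase phosphatases other than *DUSP1*, 1 was called as higher, against 26.7% of all tested genes. This was *DUSP10*, which rose by 0.68 (adjusted p = 0.013). *DUSP6*, the phosphatase of ERK, had a log2 fold change of −0.30 (adjusted p = 0.629), and *DUSP16* and *DUSP7* had 0.31 and 0.32 without passing the test. *DUSP8* was called as well when initial pool 1 was left out (log2 fold change 1.33, adjusted p = 0.0224). That made 2 of the 8, against 23.5% of all tested genes.

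Heat shock genes and hypoxia targets were called as higher at about the share of all tested genes (26.7%). Among 14 heat shock genes 3 rose (*HSPA1A* by 0.70, *HSP90AB1* by 0.48 and *HSPB1* by 0.46) and *HSPD1*, the mitochondrial chaperonin, fell by 0.55 on the log2 scale. Initial pool 1 was not raised in this list, with a median ratio to the other initial pools of 0.723. Of 20 hypoxia targets 6 rose (7 without initial pool 1), with a median of 0.17, among them *NDRG1* by 2.07, *HK2* by 1.82, *PFKFB4* by 1.05 and *EGLN3* by 0.81. *HK2*, the hexokinase of muscle and other tissues, was at 0.11 FPKM or less in the initial pools and at 0.31 to 0.58 FPKM in steatosis, so that it entered the test only because it was higher there and its call is no support.

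The remaining cell type lists were measured to place these values. At an adjusted p under 0.05, 26.7% of all tested genes rose and 2.28% fell. Without initial pool 1 these shares were 23.5% and 2.13%. Hepatocyte markers gave 3 rises and 2 falls among 11 rows, with *CYP2E1* at 0.77 and *TF* at 0.61 and 0.29 in its 2 rows, and *FGB* at −0.44 and *FGG* at −0.51. The hepatocyte rises were 2 when initial pool 1 was left out, the second row of *TF* having an adjusted p of 0.0703. Endothelial markers gave 3 rises of 8 (*PECAM1* 0.74, *KDR* 0.52 and *ERG* 0.35, but *CLEC4G* 0.18 without passing), and *PECAM1* alone was called without initial pool 1, where *KDR* and *ERG* had adjusted p values of 0.0656 and 0.0582. Stellate cell and fibroblast markers gave 2 rises of 9 (*RGS5* 0.84 and *PDGFRB* 0.73) with 1 fall (*LUM* −1.67), *COL3A1* being at 0.97 with an adjusted p of 0.0545. Without initial pool 1 the fall of *LUM* was no longer called (adjusted p = 0.0745) and *COL3A1* was called as higher (1.14, adjusted p = 0.0392). Of 5 neutrophil markers tested *CSF3R* rose by 1.49, whereas *S100A8*, *S100A12* and *CXCR2* did not pass. Adipose *FABP4*, which macrophages also express, rose by 3.10 with all pools and 4.09 without initial pool 1, while *CIDEC* and *PLIN1* did not pass. The 3 red blood cell markers tested had adjusted p values from 0.0599 (*HBB*, log2 fold change −1.37) to 0.188. Of the muscle markers 3 were tested and *ACTA1* was called as lower, but it entered the test only through the initial pools (1439, 0.49, 4.08 and 10.5 FPKM) and was listed at 0.04 FPKM or less in steatosis, so that no fold is given. Of the stomach markers *PGC* alone was tested, with −0.47 (adjusted p = 0.614). The part of initial pool 1's muscle, stomach and adipose transcripts in its high *FOS*, *FOSB*, *JUN* and *DUSP1* was not tested.

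Genes whose profile over the 8 libraries was most like the mean profile of the 10 genes were *PTGER3*, *ZBTB10*, *RHOB*, *UNC45B* and *FASN*, with Pearson r of 0.979, 0.972, 0.958, 0.951 and 0.949. With each gene centred within each group they were *KLF6*, *UBE2B*, *PTGER3*, *ADAM15* and *ZBTB10*, with r of 0.988, 0.986, 0.984, 0.982 and 0.981. These values share the libraries, rest heavily on initial pool 1 and are a description. Of these, *RHOB* and *KLF6* are themselves in the list of other immediate early genes, and *RHOB* was at 114 FPKM in initial pool 1 and 18.2 to 36.9 FPKM in the other initial pools.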

How the data were processed

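Hepatic RNA of 8 pools of 2 pigs each (4 of the initial state, 4 of steatosis) was sequenced by the authors as paired-end reads on a DNBseq platform after poly-A selection. The authors filtered the reads, mapped them to Sus scrofa 11.1, assembled transcripts with StringTie and estimated expression. The submitters' processing notes name HISAT2 2.0.4, Bowtie2 2.2.5 and RSEM 1.2.12. The authors deposited FPKM values of all libraries to 2 decimals, with no scaling between libraries stated, and these were used as deposited. The transcript length was deposited by the authors beside them as another value. Further deposited tables hold the authors' own fold changes and FDR for pairs of pools and were not used. No further per-sample columns were used.

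The fit was planned for counts or FPKM. As the table holds FPKM, limma 3.58.1 in R 4.3.3 was run on log2(FPKM + 0.1) with the variance trended on the mean and the group as the only term, with Benjamini-Hochberg adjustment, after a filter of 0.3 FPKM in 4 libraries, and it was tested on simulated data. Tables were made with Python 3.11.15, numpy 2.4.6 and pandas 2.3.3, and plots with matplotlib 3.10.9. Relative depth came from the step between low FPKM values of short genes. Coordinates came from RefSeq gene IDs of assembly Sscrofa11.1. FPKM gives no counting interval, so precision is the SD between pools.

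The pool numbers were taken as pairing the libraries, since the methods give the same animals in both groups, although membership of each pool is not given. Deviations from group means correlated at 0.163, 0.350, 0.317 and 0.247 for pools 1 to 4.

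The 10 members and the 16 gene lists (202 of 207 symbols found, some under older symbols, with *EGR4* and *NR4A1* not analysed here) were chosen with earlier results of these data known. Named besides the members are up to 4 genes of each list, those called with the largest change first and then those of highest level, and the 5 genes most like the members in each of 2 measures. Other genes were named after their values were seen, and not every gene of the lists is reported here. Alternatives were other scalings, filters and pseudocounts, array weights, robust variance, the block, and each library left out.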

Additional observations from a re-analysis of the deposited data

Results flagged for a closer look

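Values of a pool far from the other 3 of its group were sought in 224 groups of 4 pools over the 10 genes, their related lists and the genes of like profile, by the gap to the nearest pool relative to the range (Dixon's test at the 95% level). Chance alone would mark about 1 in 20 groups of independent, normal values. These genes vary together, FPKM was not put on a log scale, and initial pool 1 was already known to stand apart. The count is therefore not set against that rate. In all, 28 such values were found, 14 of them in initial pool 1. Among the 10 genes these were *FOS* at 117 FPKM, *FOSB* at 15.7 FPKM and *DUSP1* at 217 FPKM, all in initial pool 1.

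Among other genes, high values in initial pool 1 were 9.42 FPKM for *CCN2*, 0.12 FPKM for *DUSP9*, 50.2 FPKM for *GADD45B*, 4.99 FPKM for *KLF4*, 5.28 FPKM for *NR4A2*, 0.37 FPKM for *NR4A3*, 12.1 FPKM for *PPP1R15A*, 178 FPKM for *SGK1*, 217 FPKM for *ZFP36*, 109 FPKM for *ZFP36L1* and 1.07 FPKM for *UNC45B*, a chaperone of muscle myosin. Most of these genes respond early to growth factors, stress or glucocorticoids. Most were searched because they were in the list of other immediate early genes, so their kind follows from that choice.

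In the other initial pools the values that stood apart were 6.61 FPKM for *ATF2* in pool 2, 5.05 FPKM for *BATF*, 0.59 FPKM for *IER5L* and 1.18 FPKM for *MAFG* in pool 3, and 2.99 FPKM for *BATF2* and 11.7 FPKM for *MAPK3* in pool 4. In steatosis they were 17.5 FPKM for *MAP2K3* and 30.5 FPKM for *TRIB1* in pool 1, 51.9 FPKM for *ZFP36L1* in pool 2, 1.84 FPKM for *BATF3*, 5.83 FPKM for *GADD45B*, 13.5 FPKM for *ID1* and 41.5 FPKM for *MCL1* in pool 3, and 5.98 FPKM for *MRTFA* in pool 4.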

How the results depend on the processing

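*EGR2* and *EGR3* kept their direction and an adjusted p under 0.05 in all alternatives where they were tested (18 and 17). For *EGR3* these calls are no support, since it passed the filter of most fits mainly through the steatotic pools. *FOS* and *FOSB* kept only their sign as lower, with an adjusted p under 0.05 in 1 of 18 and 0 of 17 alternatives. At the limits of the study 1 of the 10 genes, *EGR2*, was called with a filter of 1 FPKM, median ratio scaling, no filter, a pseudocount of 1, the pool number as a block or upper quartile scaling, and 1 to 2 with a library left out. At an adjusted p under 0.05, 1 was called with the filter of 1 FPKM, which removes *EGR3* and *FOSB*, and 4 with the block and pool 1 of both groups left out, an alternative chosen after seeing the data. There *FOS* was at -0.71 and *JUN* at 1.02, both called, and *JUN* was also 1.02 without pool 1 of both groups and 0.42 to 1.25 with a library left out. The block alone, which takes pool numbers as pairs, changed the call of *EGR3* at the limits of the study (adjusted p 0.0197) and of no other of the 10 genes. The cause was not tested where an alternative changed a call.

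Genes that were not called changed sign as follows. With median ratio and upper quartile scaling *JUNB* was at -0.12 and -0.07 and *IER2* at -0.11 and -0.06. Without pool 1 of both groups, with or without the block, *JUND* was at 0.18 and *DUSP1* at 0.05. With a library left out, *JUNB* ranged from -0.08 to 0.43, *JUND* from -0.30 to 0.31, with 0.00 without steatotic pool 2, *EGR1* from -0.61 to 0.17, with 0.09 without initial pool 1 or steatotic pool 4 and 0.04 without steatotic pool 2, *IER2* from -0.05 to 0.33, with -0.02 without initial pool 4, and *DUSP1* from -0.78 to 0.18.

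Counts at an adjusted p under 0.05 moved for the lists. With median ratio and upper quartile scaling 1 AP-1 partner was called with each, 5 and 4 upstream regulators, 1 heat shock gene with each and 0 MAP kinase phosphatases in limma with each (2 at an unadjusted p under 0.05), while 3 other immediate early genes were called with upper quartile scaling. For the other immediate early genes it was 8 with array weights and 9 with the block, with or without pool 1, and 3 to 8 with a library left out. With the block and without pool 1 it was 5 AP-1 partners (1 to 5 with a library left out). For phosphatases it was 2 with no filter, without pool 1 of both groups and with the block without pool 1, and 1 to 2 with a library left out. Over all genes the limits of the study called 434 with a pseudocount of 1, 494 with median ratio scaling and 520 with upper quartile scaling, against 836. The depth behind low values such as those of *EGR3* and *FOSB* was not analysed here.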
